A study of Mus musculus with 6 samples.

Results

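The miR-103 and miR-107 family of mouse comprises 5 mature miRNAs cut from 3 hairpins, and all 5 are among the 1978 rows of known miRNAs counted here: mmu-miR-103-3p, mmu-miR-107-3p, mmu-miR-103-1-5p, mmu-miR-103-2-5p and mmu-miR-107-5p (mmu stands for mouse and is left out from here on). They were taken by name, and no measured value entered the rule. Small RNA had been sequenced from c-kit+ cardiac progenitor cells, heart cells with the tyrosine kinase receptor c-kit on their surface, sorted with antibody-coated magnetic beads from digested hearts of healthy wild-type (WT) male C57BL/6 mice of 4 to 6 weeks. The control group has 3 libraries, labelled with 0 hours, and the hypoxia group 3 libraries from cells kept in hypoxic culture for 12 hours. The labels name hypoxia as the treatment of every library, so the groups rest on titles and times. The titles number the libraries of each group as biological replicates. Whether such a replicate stands for an animal or culture of its own is not stated. The p-values therefore describe only how these libraries vary, in part perhaps technically. No oxygen level is stated in the sources used here, and unless control cells were cultured for as long, hypoxia and time in culture cannot be told apart. The extraction protocol names exosomes and the design text names cells as the source of the RNA. Column names carry a digit, 0 or 1, and a letter, and every direction below rests on reading 0 as control and 1 as hypoxia.

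A miRNA is cut from a hairpin transcript first by Drosha and then by Dicer, which leaves a short duplex. As a rule 1 strand, the guide, is kept in Argonaute and the other is degraded. The guide finds messenger RNAs mainly through its seed, the bases from position 2 to position 8. Hairpins of this family lie inside genes of pantothenate kinases, the enzymes of the first step of coenzyme A synthesis. The 3p arms are guides known to repress Dicer itself, to dampen insulin signalling, and, in some cell types, to respond to low oxygen.

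The 3 hairpins are shown because the arms they share decide what the counts can tell apart. The sequences are those of RefSeq for GRCm38.p6, written 5′ to 3′, with the 5p arm and then the 3p arm in capitals.
Mir103-1: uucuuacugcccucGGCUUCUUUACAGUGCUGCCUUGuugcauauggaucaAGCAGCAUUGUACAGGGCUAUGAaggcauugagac
Mir103-2: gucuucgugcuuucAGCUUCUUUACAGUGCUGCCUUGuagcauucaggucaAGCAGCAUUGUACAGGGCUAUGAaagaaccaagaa
Mir107: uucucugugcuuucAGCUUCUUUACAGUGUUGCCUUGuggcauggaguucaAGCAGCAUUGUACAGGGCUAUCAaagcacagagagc
Mir103-1 lies at chr11:35782396-35782481 on the plus strand, in Pank3. Mir103-2 lies at chr2:131288052-131288137 on the plus strand, in Pank2. Mir107 lies at chr19:34820687-34820773 on the minus strand, in Pank1. Each hairpin has the strand of its host gene in the GENCODE M21 annotation (GRCm38) and overlapped 0 exons of any transcript of it. In the host transcript with the longest coding sequence each hairpin was in intron 5 of 6.

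Both miR-103 hairpins give the same 3p arm, so counts of miR-103-3p are a sum over Pank2 and Pank3, and only the 5p rows could separate these loci. With positions counted from 1 at the 5′ end, miR-103-3p and miR-107-3p differ by G22C and share the other 22 of 23 bases. The 5p arms of Mir103-1 and Mir103-2 differ by G1A, and those of Mir103-2 and Mir107 by C16U. How reads that end before base 22 of a 3p arm were assigned is not stated in the sources used here, so a part of the miR-107-3p counts could be reads of miR-103-3p, or the reverse. For that reason the arms were also tested as a sum, which would count a read more than once if it had been credited to both arms.

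The seeds set this pair beside a larger group of miRNAs. Seeds are in capitals.
miR-103-3p: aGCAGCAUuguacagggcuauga
miR-107-3p: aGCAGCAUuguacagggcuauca
miR-16-5p: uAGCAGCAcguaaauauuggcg
miR-15a-5p: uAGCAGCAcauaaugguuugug
miR-322-5p: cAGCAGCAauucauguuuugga
miR-503-5p: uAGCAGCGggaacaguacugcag
The seed GCAGCAU occurred in 2 of the 1679 miRNAs of the table with a RefSeq sequence, miR-103-3p and miR-107-3p. The letters AGCAGC start at base 1 in these and at base 2 in miR-15a, miR-16, miR-322 and miR-503, so the seeds of the pair and of miR-16-5p share the run GCAGCA at positions 1 base apart. A start of AGCAGC within the first 3 bases was found in 13 of the 1679 (0.774%), searched on the miRNA strand only.

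Libraries held 12285970 to 16975987 counts of known miRNAs. The family took 0.147%, 0.145% and 0.164% of them in controls A, B and C, against 0.201%, 0.177% and 0.177% under hypoxia in the same order of letters. The widest exact (Clopper-Pearson) 95% interval of these shares ran from 0.175% to 0.179%, in hypoxia library C. Such intervals hold counting error alone, because copies made by PCR were not told apart from molecules. Every hypoxia library lay above every control library. The mean share was 0.152% ± 0.0106 for control and 0.185% ± 0.0139 for hypoxia (SD, n = 3 each). The groups differed by 0.0326 percentage points (exact permutation, two-sided, p = 0.1, the smallest that 3 libraries against 3 can give). In bulk RNA, fewer cells of a type and less RNA per cell cannot be told apart.

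miR-103-3p was the main product of the family and ranked from 49th to 58th among the known miRNAs of a library. Its counts in A, B and C were 16574, 19403 and 22941 for control, against 28695, 27206 and 20975 for hypoxia. As CPM (each library scaled by its total and TMM factor), these were levels of 1342, 1491 and 1460 for control and 1725, 1669 and 1522 for hypoxia. The groups did not overlap, but the lowest hypoxia library, C, was only 2.09% above the highest control library, B.

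Mean levels of miR-103-3p in CPM were 1431 ± 78.8 for control and 1638.5 ± 105 for hypoxia (SD, n = 3 each), with a ratio of means of 1.14. The log2 fold change was 0.20 (SE 0.15), and it did not pass edgeR's quasi-likelihood test adjusted over all 619 tested miRNAs (adjusted p = 0.92). Within letters the log2 differences were 0.36 (A), 0.16 (B) and 0.06 (C), so it was positive in each pair and uneven in size. With the letter as a block edgeR gave 0.19 (SE 0.11, adjusted p = 0.35). The labels do not give this pairing by letter, which was read from column names and from these same data. A p above the threshold does not show that the level was the same.

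miR-107-3p, the product of the Pank1 hairpin, was less abundant and ranked from 142nd to 175th. Its counts in A, B and C were 1521, 1663 and 2002 for control, against 2649, 2769 and 2357 for hypoxia. As levels in CPM these were 123, 128 and 127 for control and 159, 170 and 171 for hypoxia. The groups did not overlap, and the lowest hypoxia library, A, was 24.6% above the highest control library, B.

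Mean levels of miR-107-3p in CPM were 126 ± 2.59 for control and 167 ± 6.51 for hypoxia (SD, n = 3 each), with a ratio of means of 1.32. The difference exceeded the spread between libraries. The log2 difference was close to the same in each pair, with 0.37 in A, 0.41 in B and 0.42 in C. Over all tested miRNAs the log2 fold change of 0.40 (SE 0.17) had an unadjusted p of 0.044 in edgeR and did not pass after adjustment (adjusted p = 0.72). edgeR without a block called 0 of 619 miRNAs (0%), with 42 at an unadjusted p under 0.05 (6.79%). On the same data DESeq2 called 1 and limma-voom 0.

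With the letter as a block the log2 fold change of miR-107-3p was also 0.40, with a smaller SE of 0.11 and an edgeR adjusted p of 0.082, still short of the threshold. That fit called 14 of 619 (2.26%), and 132 (21.3%) had an unadjusted p under 0.05. DESeq2 with the same block did call miR-107-3p (log2 fold change 0.39, SE 0.13, adjusted p = 0.033), as 1 of the 37 it called among 399 miRNAs with an adjusted p (9.27%). edgeR with the block and scaling to library size only called it too (0.47, SE 0.14, adjusted p = 0.035), where 55 of 619 (8.89%) were called. Without pair A, B or C the blocked edgeR value was 0.42, 0.37 and 0.38, with adjusted p of 0.13, 0.24 and 0.48. By unadjusted p in the blocked fit miR-107-3p stood 45th and miR-103-3p 172nd of 619.

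Neither 3p arm was singular in its separation of the groups: 80 of the 619 tested miRNAs (12.9%) had ranges that did not overlap, 46 of them higher in hypoxia (7.43%). Both arms were also higher in hypoxia within every letter, as were 125 of the 619 (20.2%). Their small spread was less common. Among 362 tested miRNAs of at least 10 CPM the coefficient of variation of miR-107-3p was 2.05% over the control libraries, and only 3 miRNAs had a lower one. The median miRNA had 17.8%. Counting error alone gives 2.41% for the control counts of miR-107-3p. Over the hypoxia libraries the coefficient of variation of miR-107-3p was 3.90%, with 19 miRNAs lower, and the median was 16.5%. miR-103-3p had 5.50% in control (19 lower) and 6.39% in hypoxia (41 lower).

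**Figure D1:**
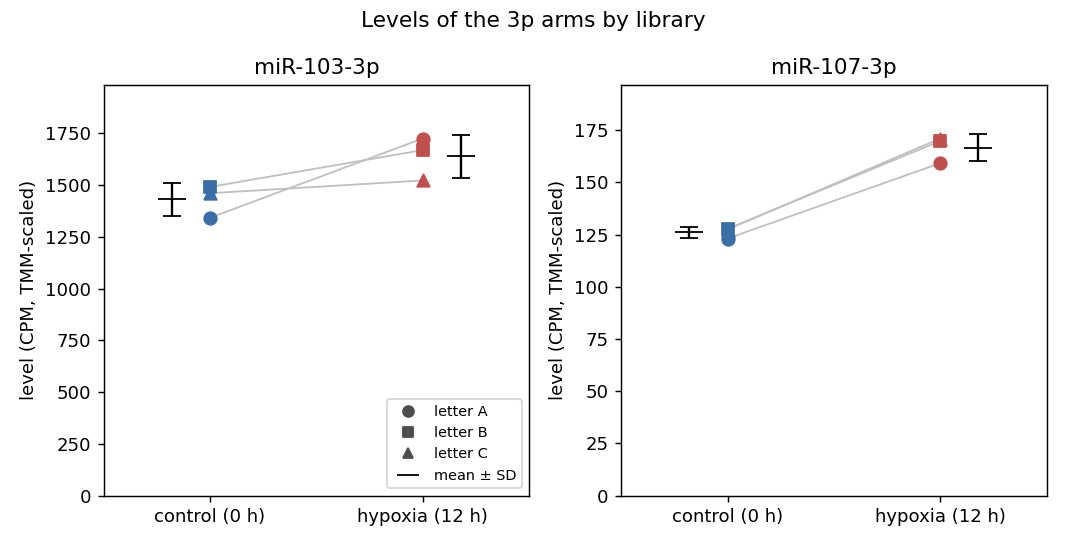
Levels of miR-103-3p (left) and miR-107-3p (right) in CPM, with axes from 0, for the 3 control and 3 hypoxia libraries. Symbols mark the column letter, grey lines join libraries of the same letter, and black bars are the mean ± SD. miR-107-3p sits between 123 and 128 CPM in control and between 159 and 171 CPM in hypoxia, with near-parallel lines, while the lines of miR-103-3p differ in slope.

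The ratio of the 3p arms needs no scaling between libraries. For each count of miR-107-3p, controls A, B and C held 10.9, 11.7 and 11.5 counts of miR-103-3p. The hypoxia libraries held 10.8 (A), 9.83 (B) and 8.90 (C). Hypoxia A thus lay just under control A, and hypoxia B and C lay further down. miR-107-3p made up 7.89% to 10.1% of the reads of both arms.

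On the log2 scale the mean ratio was 3.50 ± 0.0511 for control and 3.30 ± 0.142 for hypoxia (SD, n = 3 each). The difference was -0.21, with a two-sided exact permutation p of 0.1, the smallest possible, and 0.2 when adjusted over the 2 ratios tested. Pair A gave -0.01, pair B -0.25 and pair C -0.36 (exact sign-flip permutation p = 0.25, the smallest that 3 pairs can give). A larger difference of miR-107-3p than of miR-103-3p was thus seen in pairs B and C and hardly at all in pair A. The unknown assignment of reads that end before base 22 limits this ratio too.

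**Figure D2:**
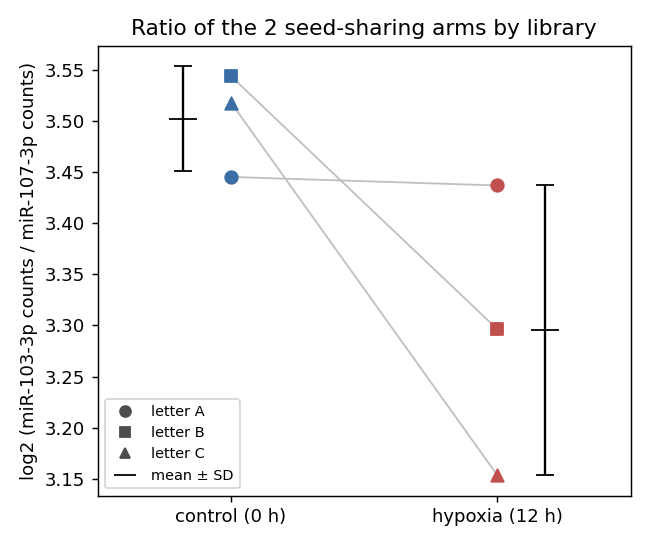
Log2 ratio of miR-103-3p counts to miR-107-3p counts in each library, by group, on an axis that does not start at 0. Symbols mark the column letter, grey lines join libraries of the same letter and black bars are the mean ± SD. The line of letter A is almost flat, and those of B and C go down.

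Summed into 1 row, the 3p arms differed by a log2 fold change of 0.21 with an SE of 0.15 (edgeR adjusted p = 0.89), and with the letter as a block by 0.21 with an SE of 0.11 (edgeR adjusted p = 0.30). The sum follows miR-103-3p, which holds most of its reads.

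The 5p arms, the passenger strands, were near or at 0. miR-103-1-5p, from Pank3, had 1 count, in hypoxia library C. miR-107-5p, from Pank1, had 1 count, in hypoxia library B. miR-103-2-5p, from Pank2, had counts in A, B and C of 0, 10 and 4 for control, against 2, 7 and 2 for hypoxia. A count of 0 allows a level of up to 0.243 CPM in control library A, the shallowest (3 counts of its scaled total).

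None of the 3 passenger arms passed the expression filter, so none was tested in the filtered fits, and for the arms with 1 count no fold change is given. The fits that kept them, edgeR without the filter and DESeq2, called none of them. The ratio of miR-103-2-5p to miR-103-3p (0.5 added to each count) had a log2 mean of -12.73 ± 2.11 for control and -12.78 ± 0.859 for hypoxia (SD, n = 3 each). That is a difference of -0.05 (two-sided exact permutation p = 1, smallest possible 0.1) whose sign depended on single libraries and whose size depended on the 0.5. With 1 added it was -0.25, and with no addition and control A, at 0 counts, left out it was -1.33. Of 26 counts in the 5p rows of the miR-103 hairpins, 25 were in that of Mir103-2. The 5p arms of these hairpins differ only at base 1, and how reads without that base were assigned is not stated in the sources used here. As these arms are the discarded strands, their counts do not give the part of miR-103-3p that came from each locus.

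Arm use was among the most one-sided of all hairpins. Over all 6 libraries the 5p arms made up 26 of 135820 reads of miR-103 (0.0191%, exact 95% interval 0.0125% to 0.0280%). For miR-107 it was 1 of 12962 (0.00771%, interval 0.000195% to 0.0430%). These intervals pool the reads of all libraries and hold counting error alone. Single libraries ran from 0% to 0.0515% for miR-103 and from 0% to 0.0361% for miR-107. For 136 hairpin names with both arms listed and at least 100 CPM, the less abundant arm held a median of 2.35% of the reads. miR-107 had the 4th and miR-103 the 7th lowest share of these 136, and their intervals overlap. In 19 of the 136 that share was under 0.1%, among them those of miR-101b, miR-328 and let-7g.

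**Figure D3:**
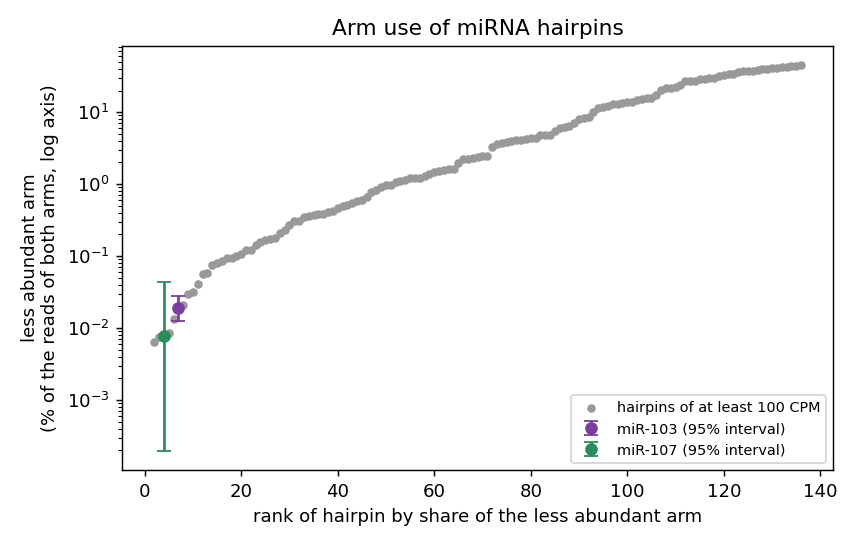
Share of the less abundant arm in the reads of both arms (log axis, in percent) for hairpins of at least 100 CPM, in order of that share. Error bars are exact 95% intervals of the pooled reads for miR-103 and miR-107, and 1 hairpin with a share of 0 is not drawn. miR-103 and miR-107 lie at the low end, at 0.0191% and 0.00771%, against a median of 2.35%.

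The better-known miRNAs with AGCAGC at the 5′ end are the miR-15/16 relatives, which restrain cell cycle genes. Of the 13 rows with the motif, 4 are outside the list described here and were not tested: miR-195b, with 4 counts over all libraries, and miR-6342, miR-6353 and miR-6419, with 0. In the list of 9 (the 5p arms of miR-503, miR-497a, miR-322, miR-195a, miR-16, miR-15b and miR-15a, and the pair) all 9 were tested and all 9 log2 fold changes were above 0, where 51.2% of all tested miRNAs were. The median was 0.40, and 0.41 over the 7 without the pair, against 0.01 over all 619. These 9 are not separate observations, because several come from neighbouring hairpins. Mir15a lies beside Mir16-1 on chr14, Mir15b beside Mir16-2 on chr3, Mir195a beside Mir497 on chr11 and Mir322 beside Mir503 on chrX. The list was also chosen with earlier results of these data known. Without a block edgeR, DESeq2 and limma-voom each called 0 of the 9. In edgeR 3 had an unadjusted p under 0.05, where 6.79% of all did. With the block edgeR called 1, miR-503-5p (log2 fold change 1.00, SE 0.12, adjusted p = 0.0072), where it called 2.26% of all. DESeq2 with the block called 5, those of miR-503, miR-322, miR-16, miR-15a and miR-107, where it called 9.27% of all. At an unadjusted p under 0.05 the blocked fit had 6 of the 9, where it had 21.3% of all.

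miR-16-5p was of the same order of abundance as miR-103-3p, with means in CPM of 1168 ± 173 for control and 1557 ± 225 for hypoxia (SD, n = 3 each). With the block its log2 fold change was 0.41 (SE 0.10), with an edgeR adjusted p of 0.060, and was close in size to that of miR-107-3p. miR-15a-5p had 72.7 ± 23.9 and 120 ± 11.8 CPM (blocked 0.77, SE 0.20), and miR-322-5p had 148 ± 38.2 and 210 ± 55.5 CPM (blocked 0.50, SE 0.11; SD, n = 3 each). Neither passed edgeR, and DESeq2 with the block called both. The remaining relatives had smaller values that passed in neither tool. With the block these were 0.33 (SE 0.12) for miR-15b-5p, 0.23 (SE 0.12) for miR-195a-5p and 0.19 (SE 0.15) for miR-497a-5p, the last of which was lower in hypoxia in pair A (-0.18). The values of miR-103-3p were the smallest of the 9 in the fit without a block, and those of miR-107-3p were in the middle. In 4 of the 9 (miR-15a-5p, miR-503-5p and the pair) the groups did not overlap and hypoxia was higher. Of all tested miRNAs 7.43% had such ranges, and 12.9% had separate ranges in either direction. The summed level of the 9 was 3252 to 3667 CPM for control and 4040 to 4516 for hypoxia.

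**Figure D4:**
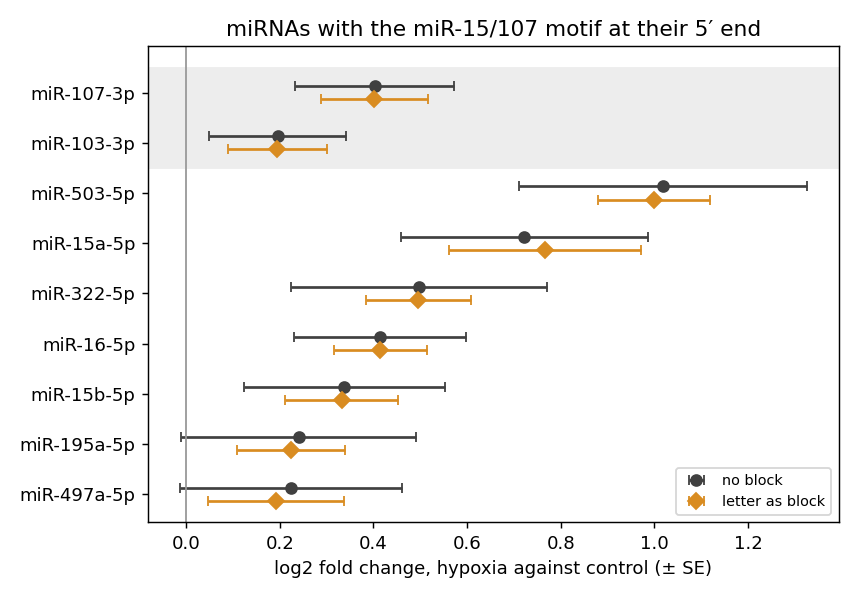
Log2 fold change of hypoxia against control (± SE) for the 9 listed miRNAs of the 13 that hold the shared motif at their 5′ end, without a block (circles) and with the column letter as a block (diamonds). The shaded rows are miR-103-3p and miR-107-3p. All 9 points lie above 0 in both fits, from 0.20 for miR-103-3p to 1.02 for miR-503-5p without the block.

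Beside miR-210-3p, the miRNA of the series' title and a target of hypoxia-inducible factors, the differences of the pair were small. miR-210-3p had a log2 fold change of 1.19 (SE 0.25) against 0.40 for miR-107-3p and 0.20 for miR-103-3p. Without a block it did not pass edgeR either (adjusted p = 0.65). It did with the block (edgeR adjusted p = 0.024), where 2.26% of all were called. Of the 2 arms of miR-210, DESeq2 without a block called 1, which was its only call. With the block DESeq2 called 2 of the 2, where it called 9.27% of all. Pair A of miR-210-3p differed by 1.85, pair B by 0.66 and pair C by 1.06, an unevenness that miR-107-3p did not have.

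The miR-200 family is known to be lowered where miR-103 and miR-107 repress Dicer. Here 4 of its 5 members were tested, 2 had log2 fold changes above 0 with a median of -0.03, and 0 of the 4 were called by edgeR or DESeq2, with or without the block, or had an unadjusted p under 0.05 in edgeR. All were scarce. The most abundant were miR-200b-3p, with 2.90 ± 0.828 CPM for control and 2.44 ± 0.122 for hypoxia, and miR-200a-3p, with 2.40 ± 0.694 and 2.79 ± 1.04 CPM (SD, n = 3 each).

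Other miRNAs in introns of metabolic genes were also measured. miR-378a, from Ppargc1b, a coactivator of mitochondrial genes, had 302 ± 15.3 CPM of its 3p arm for control and 283 ± 24.6 for hypoxia (SD, n = 3 each, log2 fold change -0.09, SE 0.17). miR-33-5p, from the sterol regulator Srebf2, stood at 1.62 ± 1.20 and 2.54 ± 0.524 CPM. Its other arm, miR-33-3p, stood at 0.897 ± 0.417 and 2.55 ± 0.821 CPM (SD, n = 3 each), with separate ranges and a log2 fold change of 1.51 (SE 0.45, unadjusted p = 0.0093 and adjusted p = 0.65 in edgeR). Of these 4 arms 3 had log2 fold changes above 0, with a median of 0.35, and edgeR and DESeq2 called 0 with or without the block. In edgeR without the block miR-33-3p was the 1 at an unadjusted p under 0.05, where 6.79% of all were.

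The miRNAs nearest in pattern were sought by the root mean square difference of log2 CPM, each centred on its own mean, over the 6 libraries and among the 362 miRNAs of at least 10 CPM. Nearest to miR-103-3p were miR-672-5p (0.0568), let-7e-5p (0.0864), miR-350-3p (0.0895), miR-30a-3p (0.0913) and miR-29a-5p (0.0926). Nearest to miR-107-3p were miR-467a-3p and miR-467d-3p (0.0654 each), whose counts were identical in every library, then miR-30c-2-3p (0.0851), miR-30b-5p (0.0915) and miR-350-3p (0.0932).

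The pair lay at 0.135 from each other. Of 361 miRNAs compared, 22 were nearer to miR-103-3p than miR-107-3p was, and 16 were nearer to miR-107-3p than miR-103-3p was. The median distances were 0.28 and 0.32. miR-350-3p, at mean levels of 71.0 CPM for control and 91.0 for hypoxia, was among the nearest to both.

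No miRNA defines c-kit+ cells, so the sorted cell type could not be checked here. The 2 endothelial arms of miR-126a summed to 227198 to 249640 CPM for control and 200661 to 238098 for hypoxia. The 5 fibroblast and smooth muscle markers summed to 26072 to 57420 and 26572 to 50347 CPM. The highest summed levels of the 6 cardiomyocyte, 6 blood and 5 epithelial markers in any library were 176, 30.7 and 10.3 CPM. All 5 marker sums overlapped between groups, and no marker was at 0 in all libraries. Relative to its level, the fibroblast and smooth muscle sum varied more within a group than either 3p arm, and any link between them was not tested. Of the cardiomyocyte markers 4 were tested, and all 4 log2 fold changes were above 0, with a median of 0.54. edgeR called 0 of them with or without the block. Without it 1 had an unadjusted p under 0.05, where 6.79% of all did. With it 3 did, where 21.3% of all did. The log2 differences of miR-133a-3p were 0.70 (A), 0.64 (B) and 0.22 (C), from means of 9.63 ± 3.51 CPM for control and 14.2 ± 6.39 for hypoxia (SD, n = 3 each). miR-133b-3p and miR-499-5p were also higher in hypoxia in every letter, and miR-1a-3p was so in A and C. Of the 5 fibroblast and smooth muscle markers 3 had log2 fold changes above 0, with a median of 0.07. DESeq2 with the block called 1 of the 5, where it called 9.27% of all. In that set miR-143-3p and miR-145a-5p had log2 fold changes of -0.10 and -0.13 without a block. miR-199a-5p was higher in A (0.23) and lower in B (-0.10) and C (-0.11). miR-199a-3p was higher in every letter (0.32 in A, 0.50 in B, 0.37 in C). Its blocked log2 fold change was 0.40 (SE 0.10, edgeR adjusted p = 0.060). miR-126a-5p was also higher in every letter (0.24, 0.43 and 0.21), while miR-126a-3p was lower in A and B. Among single markers, those with ranges that did not overlap were miR-133b-3p and miR-208a-3p, both of cardiomyocytes and below 3 CPM in both group means. The part of RNA from cardiomyocytes, or from the other cell types, in the results was not tested.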

How the data were processed

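The authors deposited raw read counts per known mature miRNA, whole numbers in 1 column per library. Tools and build listed in the submitters' processing notes, without a role, are bcl2fastq 2.0, DESeq2 and mm10. The aligner, counter, miRNA release and handling of reads with several matches were not given in the sources used here. A table of predicted miRNAs, none of them a member, was not used here.

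The count model was edgeR 4.0.16 in R 4.3.3 (filterByExpr, TMM, quasi-likelihood test, Benjamini-Hochberg adjustment over 619 miRNAs, threshold 0.05). The SE is the size of the log2 fold change over the root of the F statistic. Alternatives used DESeq2 1.42.0 and limma 3.58.1, other scalings and filters, libraries left out, and the column letter as a block. Ratios and shares were compared by exact permutation.

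Letters match no replicate number in the labels. Deviations from group means correlated at 0.48, 0.39 and 0.25 for same-lettered libraries A, B and C. For unlike letters the values ran from -0.40 to 0.10. Letters were taken to pair libraries because each same-letter value was over 0.1. Deviations from the mean of 3 libraries cancel out, so values above zero for same letters push those for unlike letters down. The contrast is thus partly built in. The pairing comes from the column names and values, not from the labels, and the blocked tests used the same values.

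The rule for members used no value, but members and lists were chosen with earlier results of these data known. Named were the 5 members, up to 8 (miR-15 and miR-107 group) or 4 of the most abundant miRNAs of each list (the miR-15 and miR-107 group, miR-210, the miR-200 family, miR-33 and miR-378a, and markers of endothelium, fibroblasts and smooth muscle, cardiomyocytes, blood and epithelium), and the 5 miRNAs nearest to each 3p arm. miR-101b, miR-328, let-7g, miR-195b, miR-6342, miR-6353, miR-6419 and miR-208a-3p were named after their values were seen. RefSeq sequences (GRCm38.p6) were matched by miRNA name.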

Additional observations from a re-analysis of the deposited data

How the results depend on the processing

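The log2 fold changes of both 3p arms stayed above 0 in all 16 alternatives to the fit without a block and in all 10 alternatives to the blocked fit. For miR-103-3p they ran from 0.13 to 0.26, with edgeR, DESeq2 or limma adjusted p from 0.35 to 1.0 (16 alternatives), and from 0.11 to 0.26 over the blocked ones. For miR-107-3p they ran from 0.21 (both arms summed) to 0.47. It passed in DESeq2 with the letter as a block (0.39) and in edgeR with the block and library size only (0.47). The difference between groups (hypoxia minus control) in the log2 ratio of miR-103-3p to miR-107-3p stayed below 0 in all 9 alternatives (-0.28 to -0.14 without single libraries), and the difference in share stayed above 0 in all 8 (0.0246 to 0.0387 percentage points without single libraries). Each set includes 1 alternative that could not differ from the main value, the mean within pairs (-0.21 for the former ratio and 0.0326 for the share). The difference between groups in the log2 ratio of miR-103-2-5p to miR-103-3p, which rests on 25 counts of the former, was -0.25 with a pseudocount of 1 and -1.33 with none. It ranged from -1.20 to 0.88 without single libraries and was above 0 without control B (0.88), control C (0.15), hypoxia A (0.30) or hypoxia C (0.07). The planned ratios of miR-103-1-5p and miR-107-5p were not run, since each arm had 1 count.

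The number of miRNAs called was 0 without a block and stayed 0 with each library left out. It was 4 without the expression filter, 1 in DESeq2, 14 in edgeR with the letter as replicate block and 37 in DESeq2 with that block. In alternatives chosen after seeing the data, the blocked edgeR fit called 55 with library size only, 43 with upper-quartile scaling, 64 without a filter and 6 with at least 10 CPM. With a pair left out it called 0 (A), 23 (B) and 0 (C). Depth limits the 5p arms, which lie at the level of a few counts in 12285970 or more.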
